A study of Mus musculus with 6 samples.

Results

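Transcripts of glycolysis and of the hypoxia response were followed in 2 stable clones of RAW264.7, an established mouse macrophage line. The listed genes were matched by symbol or synonym to the probe sets of the deposited table, and 31 of 36 were found, among 16387 named genes. They comprise 14 of 18 genes of glycolysis, with glucose uptake, lactate export and the regulators of phosphofructokinase, and 17 of 18 other hypoxia-inducible genes. Pgk1, Pgam1, Eno1, Ldha and Bnip3 were not analysed here. One clone, number 3 in the labels, carried the empty expression vector, and the other, number 8, carried a recombinant Ms4a8a cDNA in that vector. The design text names the gene Ms4a8a for the cDNA and Ms4a4a once for the clone. Both had been selected with blasticidin and were kept for 48 h in medium with 10% fetal calf serum, with no other treatment. Each clone was measured on 3 arrays, whose titles give the replicate numbers 1, 2 and 3 used below. The transgene and the clone are the same variable, and the oxygen supply and the glucose of the cultures are not given in the labels.

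The transfected gene Ms4a8a read 3.07, 3.32 and 3.22 with the empty vector and 7.40, 7.90 and 8.15 with its cDNA, on the log2 scale of the deposited values. It was 24.4-fold higher (limma adjusted p = 0.0121), which fits the labels of the arrays. All 13 measured macrophage markers, among them Csf1r and Cd68, had their highest reading on array 3 in both clones. Their mean log2 level was 10.7 to 12.3 for the vector clone and 10.8 to 12.3 with Ms4a8a. The lists of lymphocyte, of granulocyte and mast cell, and of fibroblast and epithelial markers had mean levels of 3.54 to 4.19 on the 6 arrays, against a median of 5.94 over all probe sets. The array scale has no 0, so a low level was not read as absence. Array 3 stood apart in both clones: across genes, its deviation from its clone's mean correlated at 0.865 with that of the other array 3. With those of arrays 1 and 2 of the other clone it correlated at -0.73 to -0.84. The 3 deviations of a clone add up to 0 for each gene, so these negative values largely follow from the first. Array 3 is therefore also described separately below, while the fits on all 6 arrays include it. With 1 array of number 3 per clone, the difference of array 3 from the others of its clone carries no p. A p is given later only for the gap of that difference between the clones, with its assumption stated.

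Glycolysis splits glucose to pyruvate in the cytosol and makes ATP without oxygen, and macrophages rely on it heavily when they are activated. The hypoxia-inducible factor, whose alpha subunit is encoded by Hif1a, is marked for degradation by prolyl hydroxylases (Egln1, Egln3) while oxygen is present. When oxygen falls the factor is stable and binds short DNA elements with the core ACGTG or GCGTG, and it raises many glycolysis genes together with genes of angiogenesis, mitophagy, pH control and collagen modification. Egln3 and Ankrd37 are among its direct targets, and Hif1a itself is regulated mainly at the level of the protein.

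The cores were looked up, as a description of the letters only, in the 250 bases before the start of each gene, in RefSeq promoter sequences of build GRCm38.p6. Sequences were held for 29 of the 31 measured genes, all but Ndrg1 and Bnip3l, in 40 windows, as some genes have several starts. Windows of 1 gene can overlap and count the same site again, as happens for Aldoa, so the shares are of windows and not of genes. ACGTG on either strand was found in 20 of 40 windows (50.0%), against 16.6% of all 32851 promoter windows. GCGTG was found in 19 windows (47.5%), against 28.2% of all, and at least 1 of the cores in 75.0%, against 38.6%. ACGTG also lies inside CACGTG, the E-box bound by Myc and Mitf family factors. Outside that element it was found in 47.5% of the windows and in 11.4% of all. The windows of the listed genes had a median GC content of 60.2%, against 52.4% over all windows, and the part of base composition in these shares was not tested. No reading of the arrays enters the shares, which describe a list of glycolysis and hypoxia-inducible genes. The single Eno2 window held neither core. The windows below belong to genes on which the results turn: the glucose transporter gene, the prolyl hydroxylases, and 3 targets whose difference between the clones varied with the replicate number. Each is read 5′ to 3′ on the strand of its gene, and capitals mark a core on either strand, so that GCGTG on the opposite strand reads CACGC.
Slc2a1, chr4:119108495-119108744, plus strand: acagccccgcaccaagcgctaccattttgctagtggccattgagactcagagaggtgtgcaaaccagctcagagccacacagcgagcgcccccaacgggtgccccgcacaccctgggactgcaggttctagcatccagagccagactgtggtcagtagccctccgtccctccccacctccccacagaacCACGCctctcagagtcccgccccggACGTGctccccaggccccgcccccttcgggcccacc
Egln1, chr8:124949255-124949504, minus strand: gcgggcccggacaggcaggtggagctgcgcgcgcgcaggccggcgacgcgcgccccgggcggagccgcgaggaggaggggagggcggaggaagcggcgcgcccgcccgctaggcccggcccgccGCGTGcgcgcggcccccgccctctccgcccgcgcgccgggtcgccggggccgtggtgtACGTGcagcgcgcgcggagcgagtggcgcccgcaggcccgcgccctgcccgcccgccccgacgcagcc
Egln3, chr12:54203875-54204124, minus strand: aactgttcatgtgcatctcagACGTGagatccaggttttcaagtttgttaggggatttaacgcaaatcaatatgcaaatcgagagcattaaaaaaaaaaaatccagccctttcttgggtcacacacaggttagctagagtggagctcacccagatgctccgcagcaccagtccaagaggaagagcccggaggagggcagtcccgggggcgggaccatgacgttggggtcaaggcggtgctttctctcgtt
Ankrd37, chr8:45999851-46000100, minus strand: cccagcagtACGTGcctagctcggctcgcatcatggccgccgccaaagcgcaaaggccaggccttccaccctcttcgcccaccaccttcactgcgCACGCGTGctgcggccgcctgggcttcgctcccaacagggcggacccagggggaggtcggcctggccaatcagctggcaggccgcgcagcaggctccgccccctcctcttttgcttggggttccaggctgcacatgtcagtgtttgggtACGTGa
Adm, chr7:110627407-110627656, plus strand: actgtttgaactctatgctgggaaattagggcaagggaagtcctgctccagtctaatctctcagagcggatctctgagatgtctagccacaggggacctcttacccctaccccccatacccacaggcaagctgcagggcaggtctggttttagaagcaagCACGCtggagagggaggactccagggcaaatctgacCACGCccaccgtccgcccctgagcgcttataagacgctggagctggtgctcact
P4ha2, chr11:54100674-54100923, plus strand: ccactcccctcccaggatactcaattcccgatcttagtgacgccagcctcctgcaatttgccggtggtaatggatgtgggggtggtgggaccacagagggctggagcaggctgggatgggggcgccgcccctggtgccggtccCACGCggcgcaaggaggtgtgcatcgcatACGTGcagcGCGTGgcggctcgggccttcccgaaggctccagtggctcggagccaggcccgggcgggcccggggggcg

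A pattern shared by most of these genes ran between the arrays within each clone. In both clones array 3 read above arrays 1 and 2 for 26 of the 31 measured genes, while this was so for 26.3% of all genes. Array 3 read below both others for Pdk3, Higd1a and Hif1a (33.1% of all genes). A difference of at least 1 log2 unit upward in both clones was seen for 11 of the 31 and for 3.73% of all genes, and one downward for 0 of the 31 and 2.8% of all genes. The members read higher than most genes, with a median level of 8.64 on vector array 1 against 6.02 for all genes. The part of the level in these shares was not tested. The median difference of array 3 from the mean of arrays 1 and 2 was 0.49 for the vector clone and 0.70 with Ms4a8a for the glycolysis genes. It was 1.00 and 1.13 for the other hypoxia targets, and -0.042 and -0.021 for all genes. In the vector clone the value for the hypoxia targets was 0.54 without Egln3 and Ndrg1. The macrophage markers read highest on array 3 as well, 13 of 13 in both clones, and 5 of 13 by at least 1 log2 unit in both. Their median difference was 0.81 for the vector clone and 0.62 with Ms4a8a. Single markers ranged from 0.15 to 5.56 for the vector clone and from 0.13 to 5.03 with Ms4a8a, Fcgr3 being highest in both. The part of these markers in the result was not tested. Because the RNA comes from whole cultures, more cells with a transcript and more of it per cell cannot be told apart.

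**Figure D1:**
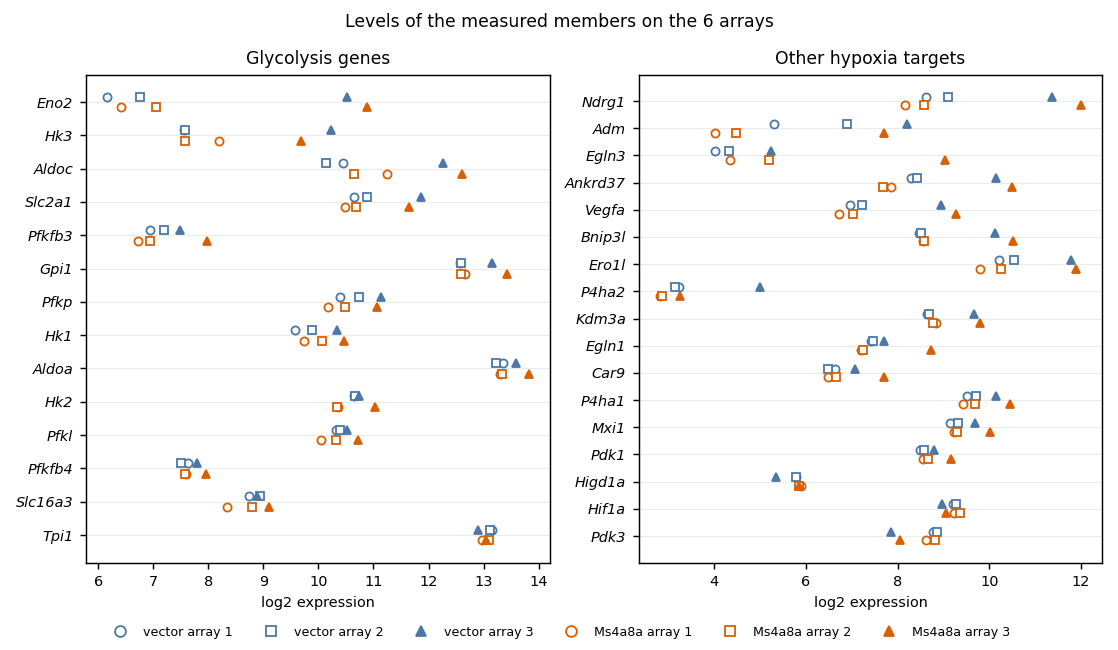
Log2 expression (x axis) of the 14 measured glycolysis genes and the 17 other hypoxia targets on each of the 6 arrays, with genes ordered by the mean difference of array 3 from arrays 1 and 2 over both clones. Filled triangles (array 3) lie to the right of the open symbols (arrays 1 and 2) of the same clone for 26 of the 31 genes.

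Among the glycolysis genes, Eno2, an enolase isozyme best known from neurons, had the widest range. It read 6.16, 6.76 and 10.51 for the vector clone's arrays 1, 2 and 3 and 6.42, 7.04 and 10.89 with Ms4a8a. Array 3 was thus 16.6-fold above the mean of the others for the vector clone and 17.9-fold with Ms4a8a, and the clones lay close together at each number. Aldoc, the aldolase isozyme C, read 10.44, 10.14 and 12.26 for the vector clone and 11.24, 10.64 and 12.61 with Ms4a8a. Its array 3 was 3.92-fold and 3.17-fold higher. Aldoa, the main aldolase of most tissues, differed less, by 0.29 and 0.50 on the log2 scale. The glucose transporter gene Slc2a1 read 10.65, 10.89 and 11.86 and then 10.49, 10.69 and 11.64, so that array 3 was 2.14-fold and 2.08-fold higher. The gap between these 2 steps, in log2 units, had a 95% interval of -0.54 to 0.47. That interval takes its spread from arrays 1 and 2 of each clone and assumes that array 3 varies like them.

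The 3 hexokinases, which phosphorylate glucose as it enters the cell, differed in the size of their step. Hk3, the isozyme of myeloid cells, read 7.57, 7.58 and 10.22 for the vector clone and 8.20, 7.58 and 9.68 with Ms4a8a. Array 3 was 6.26-fold higher for the vector clone and 3.46-fold with Ms4a8a. Hk1, the widely expressed isozyme, differed by 0.61 and 0.56 log2 units. Hk2, the isozyme most often linked to hypoxia, read 10.7 on each of the 3 vector arrays. On the Ms4a8a arrays it read 10.35, 10.34 and 11.03, so array 3 stood 0.68 log2 units above the others there and 0.08 in the vector clone. The gap of 0.60 did not pass by the limma term described below, which assumes that array 3 varies like arrays 1 and 2.

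The other steps of the pathway differed by less than 1 log2 unit, except Pfkfb3 in the Ms4a8a clone. Pfkfb3 and Pfkfb4 set the level of the sugar bisphosphate that activates phosphofructokinase. Pfkfb3 differed by 0.41 for the vector clone and 1.15 with Ms4a8a, and Pfkfb4 by 0.24 and 0.37. The phosphofructokinase subunit genes Pfkp (0.57 and 0.72) and Pfkl (0.16 and 0.53), and Gpi1, the glucose phosphate isomerase (0.56 and 0.81), were higher in both. Slc16a3, the lactate exporter, was level in the vector clone (0.04) and higher on array 3 of the Ms4a8a clone (0.52). Tpi1, the triose phosphate isomerase, was the sole glycolysis gene that was not higher on array 3 in either clone beyond 0.01 (-0.24 and 0.0020).

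Among the other hypoxia targets the medians of the array 3 difference and of its gap between the clones were above those of the glycolysis genes, although no vector clone step among them was as large as that of Eno2. Ndrg1, a stress-responsive gene widely used as a marker of hypoxia, read 8.61, 9.10 and 11.37 for the vector clone and 8.16, 8.57 and 12.004 with Ms4a8a. Array 3 was 5.73-fold higher in the first and 12.5-fold in the second. Vegfa, the main angiogenic growth factor, read 6.97, 7.23 and 8.95 and then 6.72, 7.03 and 9.28, a 3.59-fold and a 5.29-fold step. Adm, which encodes the vasodilator peptide adrenomedullin, read 5.32, 6.90 and 8.21 for the vector clone and 4.03, 4.49 and 7.69 with Ms4a8a. Its array 3 was 4.29-fold and 10.8-fold higher, but vector arrays 1 and 2 themselves lay 1.59 log2 units apart. Ankrd37, an ankyrin repeat gene, read 8.30, 8.42 and 10.13 and then 7.85, 7.69 and 10.49.

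Genes of mitophagy, oxidative folding and chromatin also read higher on array 3. Bnip3l, a receptor for mitophagy, read 8.46, 8.52 and 10.12 for the vector clone and 8.55, 8.58 and 10.52 with Ms4a8a, 3.11-fold and 3.86-fold higher on array 3. Ero1l (Ero1a in RefSeq), the oxidase that drives disulphide formation in the endoplasmic reticulum, was 2.65-fold and 3.64-fold higher. The histone demethylase gene Kdm3a was 2.00-fold and 2.01-fold higher. Smaller differences were seen for Mxi1, an antagonist of Myc (0.47 and 0.76 log2 units), for Pdk1, a kinase that holds back pyruvate dehydrogenase (0.27 and 0.54), and for Car9, a carbonic anhydrase of the cell surface (0.52 and 1.13). P4ha1, a subunit of the collagen prolyl hydroxylase, differed by 0.54 and 0.89. Pdk3, another kinase of pyruvate dehydrogenase, was lower on array 3 in both clones (-0.96 and -0.67). Hif1a itself was also lower (-0.27 for the vector clone and -0.25 with Ms4a8a). Higd1a, a small mitochondrial protein gene, was lower in the vector clone (-0.43) and level in the other (-0.020).

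**Figure D2:**
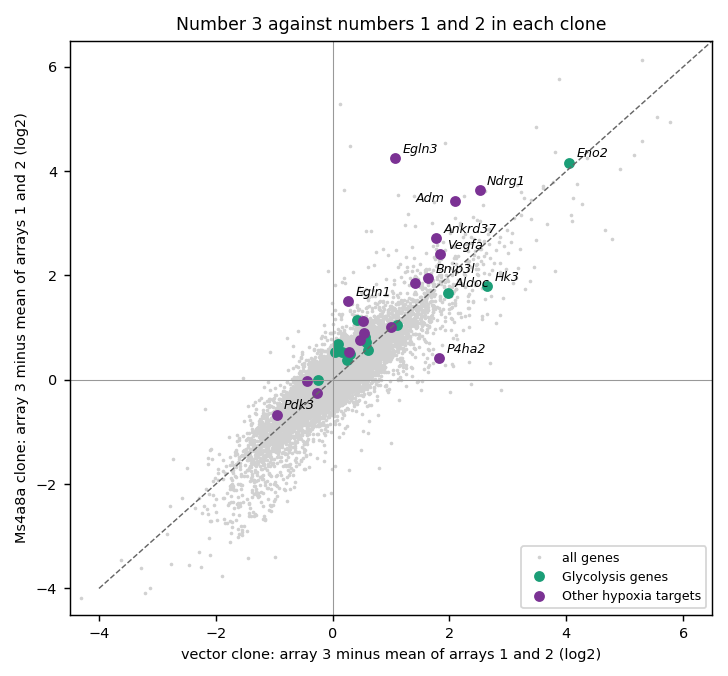
Difference of array 3 from the mean of arrays 1 and 2, in log2 units, for the vector clone (x axis) against the Ms4a8a clone (y axis), for all 16387 genes (grey), the glycolysis genes (green) and the other hypoxia targets (purple). The dashed line marks equal differences. Of the 31 members 26 lie above it, Egln3, Adm and Egln1 furthest to the Ms4a8a side, and P4ha2 lies well below it.

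The difference of array 3 was more positive in the Ms4a8a clone for 26 of the 31 members, against 52.1% of all genes. These were 10 of 14 glycolysis genes and 16 of 17 other hypoxia targets, and the exceptions were Slc2a1, Hk1, Hk3, Aldoc and P4ha2. The median gap between the clones was 0.18 for the glycolysis genes and 0.41 for the hypoxia targets, against 0.012 for all genes. A term for this gap in limma, fitted over all genes and chosen after the data were seen, takes its spread from arrays 1 and 2 of each clone and assumes that array 3 varies like them. By that term Egln1 was called as more positive in the Ms4a8a clone, as were 0.165% of all genes, and P4ha2 as more negative, as were 0.293% of all genes. At an unadjusted p under 0.05 there were 10 of 31 members, against 11.5% of all genes.

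Egln1, the main oxygen-sensing prolyl hydroxylase, read 7.42, 7.46 and 7.71 for the vector clone and 7.21, 7.25 and 8.73 with Ms4a8a. Arrays 1 and 2 were nearly equal within each clone, and the Ms4a8a array 3 stood 2.84-fold above its own clone's others, against 1.20-fold in the vector clone. The gap was 1.24 log2 units (SE 0.14, limma adjusted p = 0.0410). P4ha2, another subunit of the collagen prolyl hydroxylase, read 3.23, 3.15 and 5.01 and then 2.82, 2.88 and 3.26. It was near the bottom of the scale on all arrays but vector array 3, and its gap was -1.41 (SE 0.15, limma adjusted p = 0.0379). Egln3, the prolyl hydroxylase most strongly induced by hypoxia, read 4.02, 4.33 and 5.25 for the vector clone and 4.35, 5.21 and 9.02 with Ms4a8a. Its gap was the largest among the members, at 3.17 log2 units (SE 0.47), but it did not pass (adjusted p = 0.0696), the Ms4a8a arrays 1 and 2 lying 0.86 apart. Both calls were lost when array 1 or 2 of either clone was left out (adjusted p = 0.0928 to 0.108 for Egln1 and 0.0804 to 0.102 for P4ha2), with gaps of 1.22 to 1.26 and of -1.45 to -1.37. Without Ms4a8a array 2 the gap of Egln3 was 3.60. The spread of a gene then comes from vector arrays 1 and 2 alone, so no call is read from that fit.

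Between the clones, no member passed when all 6 arrays were used. Without a term for the replicate number limma called 0.0183% of all genes as higher and 0.0244% as lower in the Ms4a8a clone, and 0 of the 31 members, of which 0 had an unadjusted p under 0.05 (3.2% of all genes). Blocked by replicate number, the model called 0.458% of all genes as higher and 0.452% as lower, again 0 of 31, while 6 members had an unadjusted p under 0.05, against 13.3% of all genes. The smallest blocked adjusted p among them was that of Aldoc, 0.0967, at a log2 difference of 0.55 (blocked 95% interval 0.29 to 0.81). Adm differed by -1.41 (-2.20 to -0.61, blocked adjusted p = 0.149) and Eno2 by 0.31 (0.12 to 0.49, blocked adjusted p = 0.162). The clones did not overlap over all 6 arrays for 1 of 31 members, with Ms4a8a higher, and for 0 with it lower, against 3.89% and 3.99% of all genes. That member was Higd1a, at 5.78, 5.78 and 5.35 against 5.89, 5.85 and 5.85. The median difference was 0.015 for the glycolysis genes, 0.076 for the other hypoxia targets and -0.0049 for all genes.

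The sign of the difference between the clones turned with the replicate number for many members. At numbers 1 and 2 the Ms4a8a clone read lower, and at number 3 higher, for 12 of the 31 members, against 14.9% of all genes. They were Hk2, Pfkl, Pfkfb3, Tpi1, Slc16a3, Pdk3, Egln1, Ndrg1, Vegfa, Ankrd37, Ero1l and P4ha1. The opposite turn was seen for 0 of 31 members and 10.9% of all genes. The Ms4a8a clone was higher at all 3 numbers for 9 members (17.2% of all genes) and lower at all 3 for Slc2a1, Pfkp, P4ha2 and Adm (18.9% of all genes). The median difference of the glycolysis genes was -0.10, -0.018 and 0.21 at numbers 1, 2 and 3, and that of the other hypoxia targets was -0.15, -0.039 and 0.33. Over all genes it was -0.016, -0.0078 and 0.0093. These are the same values that gave the unequal array 3 differences above, seen from the other side.

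**Figure D3:**
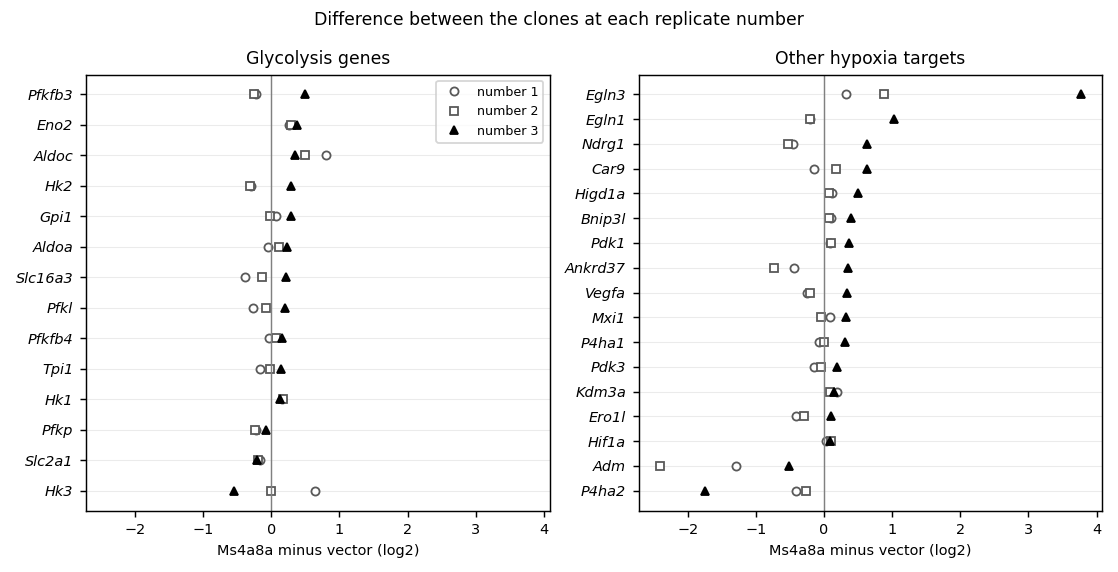
Ms4a8a minus vector in log2 units (x axis) at replicate numbers 1 and 2 (open symbols) and 3 (filled triangles) for each measured member, ordered by the difference at number 3. At number 3 the difference is positive for 26 of the 31 members, and at numbers 1 and 2 it is negative for 19 each.

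With numbers 1 and 2 alone, 4 arrays with the number as a block, 4 members passed. In this fit 1.57% of all genes were called higher and 1.07% lower in the Ms4a8a clone. Aldoc was higher by 0.65 log2 units (SE 0.10, limma adjusted p = 0.0351), at 0.80 and 0.50 for numbers 1 and 2. Adm fell by 1.85 on the log2 scale (SE 0.24, adjusted p = 0.0216), which is 3.61-fold lower, at -1.29 and -2.41. Ankrd37 fell by 0.59 (SE 0.10, adjusted p = 0.0437), at -0.45 and -0.73. Ndrg1 fell by 0.49 (SE 0.08, adjusted p = 0.0426), at -0.45 and -0.53. On these 4 arrays the clones did not overlap for 13 of the 31 members, the 4 called genes among them, a share near the 44% of all genes. For Ndrg1 the lower vector array read 8.61 and the higher Ms4a8a array 8.57. These calls rest on 1 residual degree of freedom per gene and on the pairing of the numbers. Without the block none of the 4 passed (adjusted p = 0.0704 to 0.406), nor when the Ms4a8a arrays 1 and 2 swapped numbers (0.116 to 0.580).

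**Figure D4:**
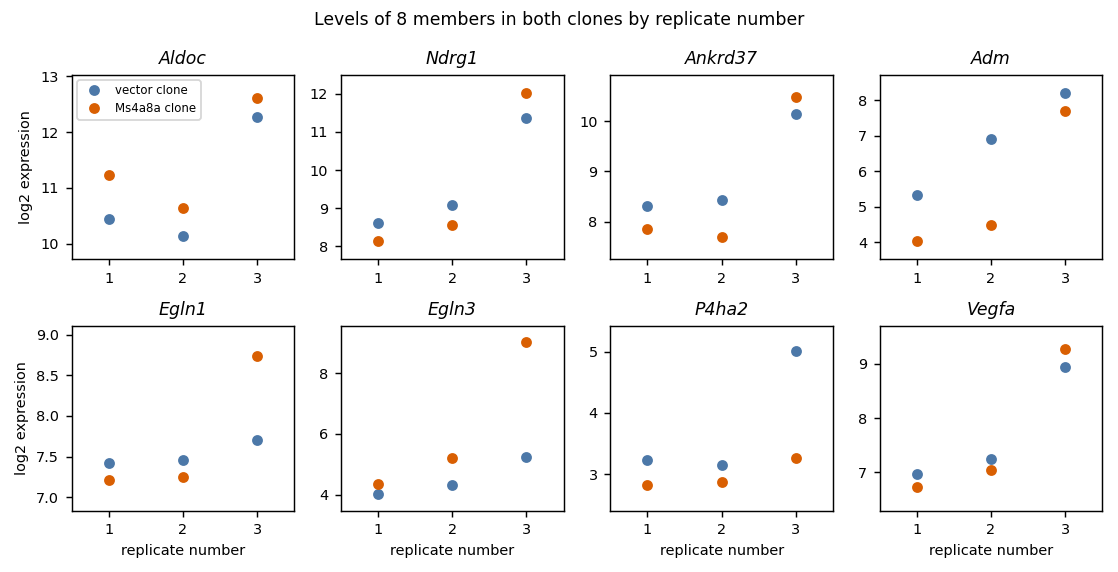
Log2 expression (y axis, a separate range for each gene) of 8 members against the replicate number (x axis) in the vector clone (blue) and the Ms4a8a clone (orange), 1 point per array. For Ndrg1, Ankrd37, Egln1 and Vegfa the Ms4a8a point is the lower one at numbers 1 and 2 and the higher one at number 3.

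Numbers 1 and 2 also differed from each other in the same direction in both clones for many members. Array 2 read above array 1 in both clones for 19 of the 31, against 28.2% of all genes. They were 7 of 14 glycolysis genes and 12 of 17 other hypoxia targets. Eno2 was higher on array 2 by 0.60 for the vector clone and 0.63 with Ms4a8a, Ndrg1 by 0.49 and 0.42, Ero1l by 0.34 and 0.46, and Slc2a1 by 0.24 and 0.20. Aldoc went the other way (-0.29 and -0.60). Over all genes the difference of array 2 from array 1 correlated between the clones at r = 0.288, a value across genes, which are not independent replicates.

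Genes of the same pathways outside the member list were less one-sided on array 3. Of 33 other measured genes of glucose metabolism, 9 (27.3%) read highest on array 3 in both clones and 14 (42.4%) lowest, against 26.3% and 33.1% of all genes. The share that read highest was thus near that of all genes. Between the clones 0 of the 33 passed in either model with all arrays. Pdk2, a further kinase of pyruvate dehydrogenase, was higher on array 3 by 1.68 and 1.66 log2 units in the vector and Ms4a8a clones. The aldose mutarotase gene Galm (0.92 and 1.63), the sugar transporter gene Slc2a6 (1.27 and 1.25) and the phosphofructokinase subunit gene Pfkm (0.80 and 1.35) were also higher. Pgd, an oxidative enzyme of the pentose phosphate pathway, was lower (-1.31 and -1.50), as was Pdhx, a component of the pyruvate dehydrogenase complex (-0.90 and -1.17).

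Of 55 other measured genes of the hypoxia response, 27 (49.1%) read highest on array 3 in both clones and 8 (14.5%) lowest, against 26.3% and 33.1% of all genes. Selenbp1, a selenium-binding protein gene, was higher by 3.88 and 5.77 log2 units and the chemokine receptor gene Cxcr4 by 4.78 and 2.70. Ier3, an immediate-early gene (3.22 and 3.15), Rora, a nuclear receptor (2.67 and 2.03), and Ddit4, an inhibitor of mTOR signalling (2.29 and 2.28), were higher as well. The transferrin receptor gene Tfrc, which is itself a known target of the hypoxia-inducible factor, was lower (-3.28 and -3.61). Between the clones 2 of the 55 fell in the blocked model (0.452% of all genes) and 0 rose (0.458%), and 0 passed without the block. Car12, a carbonic anhydrase of the cell surface like Car9, read 8.71, 9.002 and 8.95 for the vector clone and 7.63, 7.94 and 8.24 with Ms4a8a. It fell by 0.95 on the log2 scale (blocked adjusted p = 0.0198), with no overlap between the clones. Without overlap 1 of the 55 was lower and 3 were higher, against 3.99% and 3.89% of all genes. Ddit4 fell by 0.53 (blocked adjusted p = 0.0436), at -0.58, -0.48 and -0.54 for numbers 1, 2 and 3.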

How the data were processed

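RNA from the 6 samples was labelled and hybridised to Affymetrix arrays, per the labels' protocols. The authors' deposited table holds log2 values, 1 per probe set and array. When sorted, the 6 columns are identical (largest difference 0), so the arrays share 1 distribution and a level is relative to the rest of its array. The summary method, background correction and software are not given in the sources used here. Of 17370 probe sets, 16387 had 1 gene symbol, 0 had several, 919 had none and 64 were controls. Each gene has 1 probe set, and 1773 symbols were updated through RefSeq (assembly GRCm38.p6).

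The clones were compared with limma 3.58.1 (R 4.3.3), two-sided, on all 16387 genes with no filter, with Benjamini-Hochberg adjustment and a threshold of 0.05. The script was tested on simulated data, with spread taken from arrays 1 and 2 and a random shift of number 3 that was equal in both clones. Of genes changed there by 1 log2 unit, 29% were recovered without the block, 93% with it and 14% by the term for the gap. Array 3 steps that differ between the clones, as seen for many members, were not simulated for the fits with and without the block. The 93% need not hold for such genes. A gene that did not pass may therefore still differ. Same-numbered arrays deviated together from their clone means (correlations across genes 0.709, 0.809 and 0.865 for numbers 1, 2 and 3). Vector array 1 correlated as closely with Ms4a8a array 2 (0.713), and vector array 2 at 0.617 with Ms4a8a array 1. On their own these values therefore do not settle the pairing of numbers 1 and 2. The source names number the arrays 2, 1 and 3 in both clones where the titles give 1, 2 and 3. They therefore pair the arrays alike, but which array is 1 and which is 2 rests on the titles. The replicate number was also used as a block. Nothing in the labels says that the arrays of a clone are separate cultures, so p-values measure the spread between arrays, which may be technical. The number of arrays limits the precision. Members and lists were chosen with earlier results of these data known. All members are accounted for. Of the other pathway genes, those past the threshold in either model and up to 6 per list with the largest same-signed array 3 difference are named, with later exceptions stated.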

Additional observations from a re-analysis of the deposited data

Results flagged for a closer look

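The difference of array 3 from arrays 1 and 2 passed the threshold of the limma term for its gap between the clones for 3 genes of the lists. That term sets 1 array of number 3 per clone against spread taken from arrays 1 and 2, so the variation of array 3 itself was not measured. Egln1 had a gap of 1.24 log2 units (adjusted p = 0.0410), more positive in the Ms4a8a clone, and P4ha2 one of -1.41 (adjusted p = 0.0379). P4ha2 read 2.82 to 3.26 on the Ms4a8a arrays, near the bottom of the scale, so the size of its gap is not exact. Pgf, a placental growth factor of the Vegfa family that the naming rule does not cover and that is named here after its values were seen, read 5.88, 5.87 and 7.52 on the vector arrays and 5.84, 5.83 and 6.11 on the Ms4a8a arrays. Its gap was -1.37 (adjusted p = 0.0363). Each of the 3 calls was lost when array 1 or 2 of either clone was left out (adjusted p = 0.0749 to 0.105 for Pgf), with the gap of Pgf at -1.37 to -1.36.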

How the results depend on the processing

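With all arrays, 0 members were called between the clones under each alternative tried, which were the replicate block, the 25th percentile filter, array weights, the swap of numbers described below, a trend in the prior and each array left out in turn (0 to 0). The count was 4 for numbers 1 and 2 alone with the replicate block. Over all genes the count of 7 became 149 with the replicate block, 67 when the Ms4a8a arrays 1 and 2 swapped numbers in it, 47 with array weights, and 0 to 8 with 1 array left out. For numbers 1 and 2 alone it was 147 without the block, 434 with it and 66 with the swap. The cause was not tested. The swap, the fits of the gap and the omission of named genes were chosen after seeing the data. The median clone difference ran from -0.25 to 0.16 for the glycolysis genes and from -0.22 to 0.29 for the other hypoxia targets with 1 array left out, both lowest without Ms4a8a array 3. For numbers 1 and 2 alone it was -0.038 and -0.040. The array 3 median of the hypoxia targets was 0.92 in the vector clone against array 2 alone, 0.77 there and 1.32 in the Ms4a8a clone under the 25th percentile filter, which removes P4ha2, and 0.54 in the vector clone without Eno2, Egln3 and Ndrg1. Members called for the gap between clones were 1 under that filter. Of the differences between clones of the members with Ddit4 and Car12, none called, 57 changed sign and 141 kept it when 1 array was left out. Ddit4 and Car12 were called with the block, and Car12 also for numbers 1 and 2 alone without it (adjusted p = 0.0437).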
